A study of Mus musculus with 33 samples.

Results

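The synaptic vesicle release machinery comprised 41 mouse genes, taken by symbol from a list made for this description, of 54752 genes in the RNA files and 22523 in the footprint files. All 41 were found in forebrain RNA, hippocampus RNA and hippocampus footprints, and all 41 passed the filter on low counts in every fit. By role they were 3 synapsins (Syn1, Syn2, Syn3), 6 vesicle membrane proteins (Syp, Synpr, Syngr1, Sv2a, Sv2b, Sv2c), 4 calcium sensors (Syt1, Syt2, Syt7, Doc2b), 4 SNARE proteins (Snap25, Stx1a, Vamp1, Vamp2) and 5 SNARE regulators (Cplx1, Cplx2, Cplx3, Nsf, Napb). The others were 3 priming factors (Unc13a, Unc13b, Unc13c), 9 active zone scaffold proteins (Rims1, Rims2, Rims3, Pclo, Bsn, Erc1, Erc2, Ppfia2, Ppfia3), Rab3a with its effector Rph3a, 3 endocytosis genes (Dnm1, Synj1, Amph) and 2 glutamate transporters (Slc17a6, Slc17a7).

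The mice were 8 weeks old and differed in n-Tr20, a neuronal tRNA gene. Forebrain RNA, depleted of ribosomal RNA, came from 5 groups of 4 mice: C57BL/6J mice with both copies of n-Tr20 deleted (B6J knockout), C57BL/6J mice, labelled hypomorphic for n-Tr20 (B6J), C57BL/6J mice with the transgene Tg(n-Tr20) in its B6N form (B6J transgenic), C57BL/6NJ mice with both copies deleted (B6N knockout), and C57BL/6NJ mice with wild-type n-Tr20 (B6N). Hippocampus of B6N knockout and B6N mice gave 3 libraries of poly(A) RNA and 3 of ribosome footprints per genotype. Footprints are RNA fragments that ribosomes shield from nuclease, so their count follows how many ribosomes sit on a message. The labels' protocol calls the mice of the hippocampus RNA libraries B6JN, while their strain label is C57BL/6NJ, and the labels give no promoter or integration site for the transgene. B6J transgenic mice keep the hypomorphic gene of their strain. The n-Tr20 transcript was not analysed here, so the genotypes rest on the labels.

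In a nerve terminal, vesicles filled with transmitter dock at the active zone, a scaffold of Rim, Bassoon, Piccolo, ELKS and liprin proteins beneath the membrane. Munc13 proteins prime them by helping syntaxin, SNAP-25 and synaptobrevin to assemble into the SNARE complex, complexins bind that complex, and synaptotagmins trigger fusion when calcium enters. NSF takes the complex apart again, and dynamin, amphiphysin and synaptojanin serve the retrieval of vesicle membrane. Principal neurons of forebrain and hippocampus release glutamate, which transporters of the Slc17 family load into vesicles.

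Library totals were 14698988 to 38489457 estimated counts in forebrain (21 libraries), 35825476 to 60426608 counts in hippocampus RNA (6 libraries) and 7616107 to 17896587 counts in footprints (6 libraries). The lowest member count in a library was that of Cplx3, at 109 in forebrain RNA, 89 in hippocampus RNA and 11 in footprints. No pan-neuronal marker was at 0 in any group. All B6J knockout libraries belonged to batch 2, and all other forebrain libraries to batch 1 except a repeat library of B6J transgenic mouse 4 in batch 2. By Xist and Ddx3y, B6J knockouts 1 to 3 and knockout 1 of hippocampus RNA were female and the other RNA libraries male. Markers of choroid plexus, a tissue outside the neurons studied, summed to 396 to 561 CPM (counts relative to the library total, scaled by the trimmed mean of M values) in B6J knockout, 10.3 to 483 CPM in B6J, 15.1 to 67.0 CPM in B6J transgenic, 11.8 to 289.8 CPM in B6N knockout and 12.7 to 197 CPM in B6N forebrain. In bulk tissue, fewer cells of a type and less RNA per cell cannot be told apart.

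In B6N forebrain, levels per transcript length were led by the SNARE gene Snap25, at 379 ± 19 TPM (SD, n = 4), the abundance per transcript length that the authors deposited. The calcium sensor Syt1 followed at 187 ± 13 TPM and Syp, encoding the vesicle protein synaptophysin, at 129.7 ± 8.3 TPM. Nsf, Rab3a and Slc17a7 came next with overlapping ranges, at 105, 102 and 98.8 TPM. Members of 1 family lay far apart. Among complexins, Cplx2 was at 74.97 ± 4.1 TPM, Cplx1 at 57.3 ± 4.4 TPM and Cplx3 at 2.83 ± 0.14 TPM, and among Munc13 genes Unc13a was at 24.8 ± 2.4 TPM, Unc13b at 15.1 ± 1.6 TPM and Unc13c at 4.93 ± 0.33 TPM. The calcium sensor gene Doc2b was lowest, at 2.08 ± 0.12 TPM. Of the 40 pairs of neighbours in the order of levels, 27 had overlapping ranges, so most neighbouring ranks did not differ beyond the spread between libraries.

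**Figure D1:**
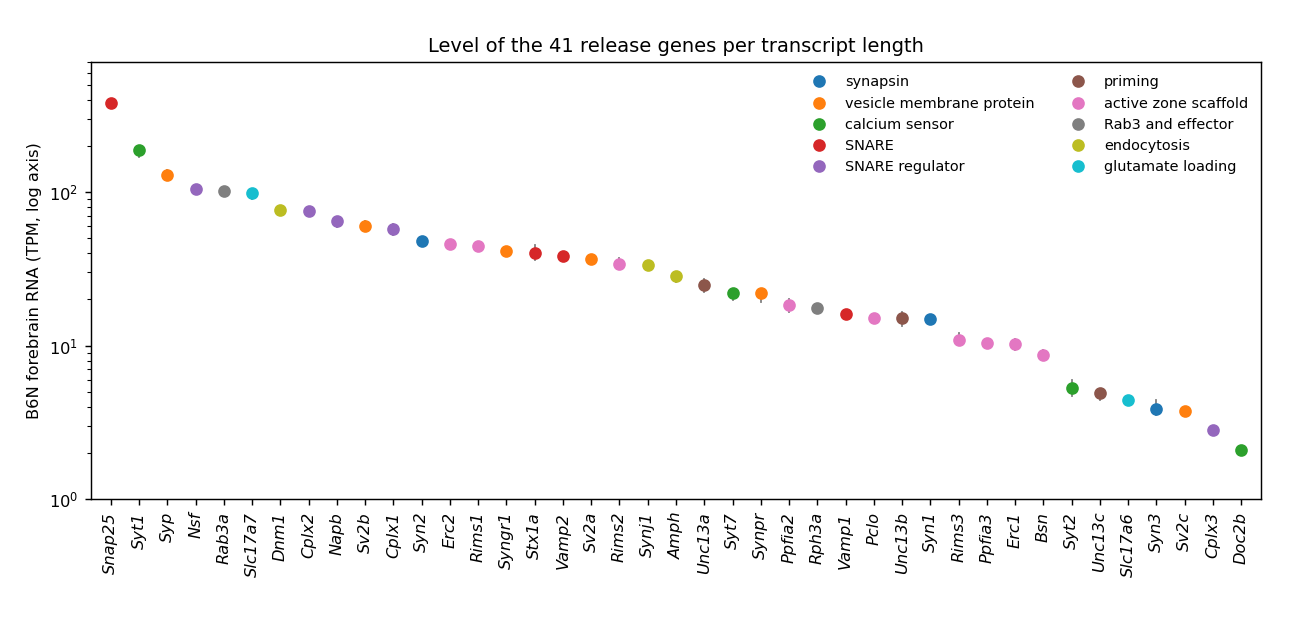
Level of each of the 41 members in B6N forebrain RNA, in TPM on a log axis. Points are means of 4 libraries coloured by role, and lines run from the lowest to the highest library. Snap25 stands highest and Doc2b, at 2.08 TPM, lowest.

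In B6N knockout forebrain, 3 members changed. Cplx1, encoding complexin 1, fell 1.23-fold, the calcium sensor gene Syt2 fell 1.22-fold, and Unc13b, encoding the priming factor Munc13-2, rose by 0.17 ± 0.037 on the log2 scale (SE). Of all 25151 genes tested 1.91% were called, 1.11% higher and 0.807% lower. The median difference was 0.02 over members and -0.0014 over all genes.

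Cplx1 was at 205, 206, 212 and 201 CPM in B6N knockout and 266, 261, 240.4 and 247 CPM in B6N forebrain. Every knockout library was below every B6N library (log2 -0.30 ± 0.043), with an adjusted p of 5.98e-05 by edgeR's quasi-likelihood test, adjusted by Benjamini and Hochberg's method over the genes tested. Cplx1 lies at chr5:108518554-108550027 on GRCm38 with no other annotated gene in its span, and 99.97% of its counts in B6N forebrain were given to the transcript Cplx1-201. Syt2, the synaptotagmin of many fast inhibitory synapses, was at 30.4, 29.7, 34.9 and 30.7 CPM in B6N knockout and 36.02, 40.8, 38.4 and 38.8 CPM in B6N forebrain, with no overlap (log2 -0.29 ± 0.068, adjusted p = 0.023 by edgeR). Unc13b was at 114, 126, 117 and 115 CPM in B6N knockout and 107, 103, 105 and 105 CPM in B6N forebrain, again with no overlap (adjusted p = 0.011 by edgeR). Its span holds the coding gene Fam214b, and the libraries mark the strand, though the labels do not say whether counting used it.

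The scaffold genes Rims1 (0.12 ± 0.035, adjusted p = 0.076) and Pclo (0.13 ± 0.041, 0.097 by edgeR) had the next smallest p and did not pass, though each knockout library was above each B6N library. Rims1 was at 277, 285, 284 and 269 CPM in B6N knockout and 250.3, 259, 261 and 254 CPM in B6N forebrain. Pclo was at 385, 402, 422 and 388 CPM in B6N knockout and 371, 374, 365 and 347 CPM in B6N forebrain. With DESeq2 Rims1 passed (adjusted p = 0.024). In all 7 members did not overlap between the groups, 5 above and 2 below, where 8.58% of all genes did not. The 38 members not called lay between -0.11 (Syngr1) and 0.21 (Slc17a6), 23 above 0 and 15 below. Of 8 inhibitory neuron markers 1 rose and 1 fell, none was at 0 in every library, and their sum was 506 to 535 CPM in B6N knockout and 513 to 569 CPM in B6N forebrain. Of 10 pan-neuronal markers 2 fell, Uchl1 (-0.20, adjusted p = 0.0029) and Tubb3 (-0.17, 0.011 by edgeR), none was at 0 in every library, and their sum was 3169.6 to 3354 CPM in B6N knockout and 3247 to 3318 CPM in B6N forebrain. Of the other marker lists, 1 marker rose in each of those for striatum (Tac1), layer 6b (Moxd1) and CA1 and CA3 pyramidal cells (Bok). The part of these lists in the member differences was not tested.

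Ttr, the most abundant choroid plexus marker, exceeded 40 CPM (unscaled) in knockout 3 and in B6N 1, 2 and 4. Without libraries above that limit, which left 1 B6N library assumed to vary like the others, Cplx1 was at -0.23 (adjusted p = 0.26), Syt2 at -0.34 (0.20) and Unc13b at 0.17 (0.59 by edgeR), and no member passed. With single libraries left out, Cplx1 passed in 8 of 8 fits, Unc13b failed without knockout 2 (adjusted p = 0.082), and Syt2 failed without knockout 1, 2 or 4 or without B6N 2, 3 or 4 (0.060 to 0.099).

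**Figure D2:**
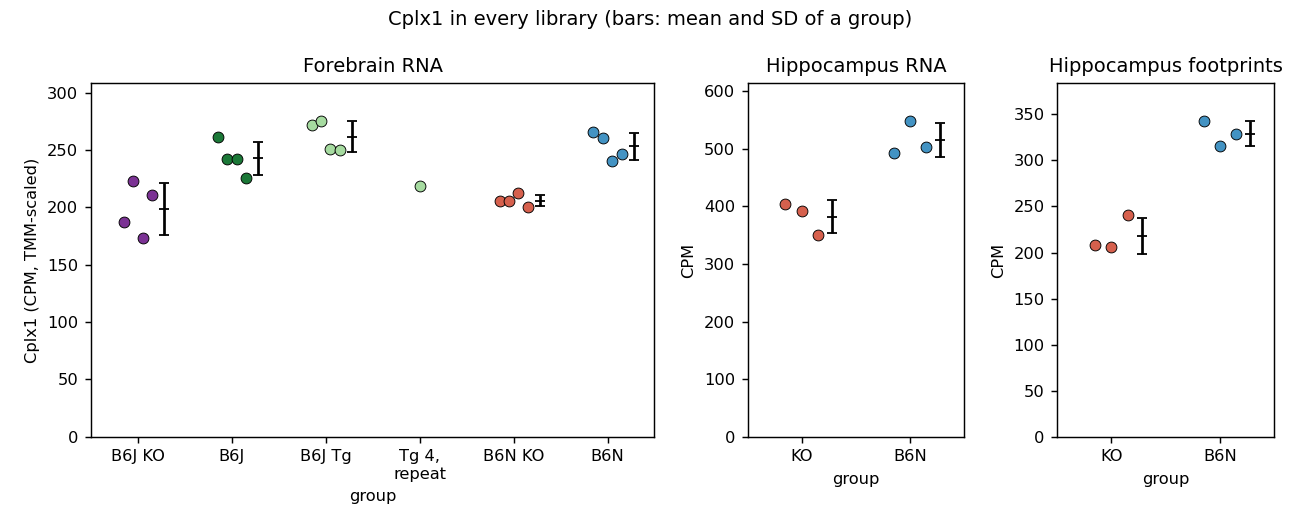
Cplx1 in scaled CPM in every library of forebrain RNA, hippocampus RNA and hippocampus footprints, by group, with mean and SD beside the points. In each assay the B6N knockout libraries lie below all B6N libraries, at 201 to 212 CPM against 240 to 266 CPM in forebrain, and the repeat library of B6J transgenic mouse 4 lies at 219 CPM.

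Promoters of these 3 called members are shown because it is their RNA that differed in B6N knockout forebrain. Each is a RefSeq window of 300 bases on GRCm38.p6, from 250 before to 50 after an annotated start, 5′ to 3′ on the strand of the gene. That start is the outermost one for Cplx1, and lies 78 bases inside the annotated span of Syt2 and 12760 bases inside that of Unc13b, which extends further upstream. Capitals mark TGACG or CGTCA, the core of the cyclic AMP response element on either strand, and GGGCGG or CCGCCC, the GC box on either strand. In these windows no match to one motif overlapped a match to the other.
Cplx1, chr5:108549978-108550277, minus strand: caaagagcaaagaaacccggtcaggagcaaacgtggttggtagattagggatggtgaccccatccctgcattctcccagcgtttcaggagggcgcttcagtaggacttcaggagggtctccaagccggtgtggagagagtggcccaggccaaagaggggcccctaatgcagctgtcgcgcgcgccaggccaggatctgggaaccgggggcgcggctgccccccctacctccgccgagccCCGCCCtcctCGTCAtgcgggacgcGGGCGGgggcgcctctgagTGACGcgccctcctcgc
Unc13b, chr4:43058703-43059002, plus strand: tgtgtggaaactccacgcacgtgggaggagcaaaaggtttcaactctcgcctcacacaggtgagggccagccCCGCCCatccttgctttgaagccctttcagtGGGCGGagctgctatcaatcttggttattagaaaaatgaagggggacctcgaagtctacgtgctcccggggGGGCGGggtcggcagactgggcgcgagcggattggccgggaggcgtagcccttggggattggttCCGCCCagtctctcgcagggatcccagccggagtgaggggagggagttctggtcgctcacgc
Syt2, chr1:134646362-134646661, plus strand: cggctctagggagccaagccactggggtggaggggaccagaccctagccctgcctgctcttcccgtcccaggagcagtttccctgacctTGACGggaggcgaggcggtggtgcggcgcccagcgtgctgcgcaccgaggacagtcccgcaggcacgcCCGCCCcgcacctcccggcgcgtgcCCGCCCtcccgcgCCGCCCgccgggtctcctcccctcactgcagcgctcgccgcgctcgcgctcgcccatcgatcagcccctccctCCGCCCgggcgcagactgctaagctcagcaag
The Cplx1 window held 2 matches to TGACG and 2 to the GC box, the Unc13b window 0 and 4, and the Syt2 window 1 and 4. RefSeq windows were found for 35 of the 41 members. TGACG on either strand was in 22.9% of the 35, beside 21.02% of all 27025 windows, and GGGCGG in 74.3%, beside 35.9%. TGATGNAA, an element bound by factors of the ATF and C/EBP families, was in 0 of the 35 and in 4.06% of all windows. The median share of G and C was 62.7% in members and 52.7% in all windows.

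B6J and B6N mice differ in their strain background as well as in n-Tr20. In B6J against B6N forebrain 5 members rose, the vesicle protein gene Sv2c, the calcium sensor gene Syt2, the scaffold genes Pclo and Rims1 and the Rab3 effector gene Rph3a, by 0.17 to 0.30 on the log2 scale. Of all genes 1.73% were called, 1.21% higher. The median difference was 0.04 over members and -3.14e-04 over all genes.

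Sv2c, a vesicle glycoprotein prominent in the basal ganglia, was at 56.5, 55.2, 58.7 and 59.3 CPM in B6J and 48.4, 51.9, 44.2 and 42.7 CPM in B6N forebrain (log2 0.30 ± 0.057, adjusted p = 0.0043 by edgeR). Syt2 was at 52.3, 44.97, 46.2 and 45.02 CPM in B6J and 36.02, 40.8, 38.4 and 38.8 CPM in B6N forebrain (0.30 ± 0.067, adjusted p = 0.021 by edgeR). Neither gene overlapped between the strains. Pclo, encoding Piccolo, was at 417, 427, 407 and 423 CPM in B6J and 371, 374, 365 and 347 CPM in B6N forebrain (0.20 ± 0.041, adjusted p = 0.0048 by edgeR). Rims1, encoding a Rim protein that links vesicles, Munc13 and calcium channels, was at 276, 289.6, 289 and 294 CPM in B6J and 250.3, 259, 261 and 254 CPM in B6N forebrain (0.17 ± 0.035, adjusted p = 0.0075 by edgeR). Rph3a, encoding rabphilin, was at 155, 154, 151 and 158 CPM in B6J and 134, 142, 135 and 128 CPM in B6N forebrain (0.20 ± 0.046, adjusted p = 0.016 by edgeR). In these 3 genes, too, each B6J library was above each B6N library. In all 11 members did not overlap, 10 above and 1 below, where 9.07% of all genes did not. The 36 members not called lay between -0.13 (Cplx3) and 0.22 (Bsn), 24 above 0 and 12 below.

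Markers of striatum and of inhibitory neurons moved with these members. Of 12 striatum markers 3 rose, none was at 0 in every library, and their sum was 924 to 1059 CPM in B6J and 793 to 849 CPM in B6N forebrain. Of 8 inhibitory neuron markers 2 rose, none was at 0 in every library, and their sum was 589 to 644 CPM in B6J and 513 to 569 CPM in B6N forebrain. Of the other marker lists, the pan-neuronal Uchl1 (log2 -0.18) and the meninges markers Ogn (-0.61) and Dcn (-0.35) fell. Pdzd2 of dentate granule cells (0.40) and Bok of CA1 and CA3 pyramidal cells (0.38) rose. Drd1, a striatum marker that rose (0.31), is also on the layer 6b list. The part of these lists in the member differences was not tested. Without the libraries with Ttr over 40 CPM, which include B6J 1, no member passed, and Sv2c was at 0.39 (adjusted p = 0.058 by edgeR). Syt2 failed without B6N 1, 3 or 4 or B6J 1 or 3 (adjusted p 0.051 to 0.072) and Rph3a without B6N 3 or 4 or B6J 4 (0.055 to 0.084), while Sv2c, Rims1 and Pclo passed in 8 of 8 such fits.

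B6J transgenic against B6N forebrain called 2 members, both higher, where 0.366% of all genes were called, 0.27% higher. Syt2 was at 44.5, 56.6, 47.3 and 48.2 CPM in B6J transgenic and 36.02, 40.8, 38.4 and 38.8 CPM in B6N forebrain (log2 0.35 ± 0.067, adjusted p = 0.012 by edgeR). Rph3a was at 166, 166, 142 and 146 CPM in B6J transgenic and 134, 142, 135 and 128 CPM in B6N forebrain (0.20 ± 0.046, adjusted p = 0.037 by edgeR), with transgenic 3 level with B6N 2 to the whole CPM. Pclo (0.16 ± 0.041, 0.074), the synapsin gene Syn3 (0.23 ± 0.063, 0.13) and the SNARE gene Vamp1 (0.17 ± 0.048, 0.16 by edgeR) followed and did not pass. In all 6 members did not overlap, 5 above and 1 below, where 4.81% of all genes did not, and the 39 not called lay between -0.21 (Cplx3) and 0.56 (Slc17a6). The 3 comparisons with B6N share its 4 libraries, and in them Syt2 was at -0.29 ± 0.068 in B6N knockout, 0.30 ± 0.067 in B6J and 0.35 ± 0.067 in B6J transgenic. Without the libraries with Ttr over 40 CPM neither passed (Syt2 0.40, adjusted p = 0.051, and Rph3a 0.17, 0.70 by edgeR). Syt2 failed without B6N 1, 3 or 4 (adjusted p 0.052 to 0.068) and Rph3a without B6N 1, 3 or 4 or transgenic 1 or 2 (0.088 to 0.23). Of the inhibitory neuron markers 2 of 8 rose here as well, and none was at 0 in every library. Their sum was 598 to 615 CPM in B6J transgenic and 513 to 569 CPM in B6N forebrain. Lpar1, of the layer 6b list, rose too (log2 0.27). The part of both lists was not tested.

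**Figure D3:**
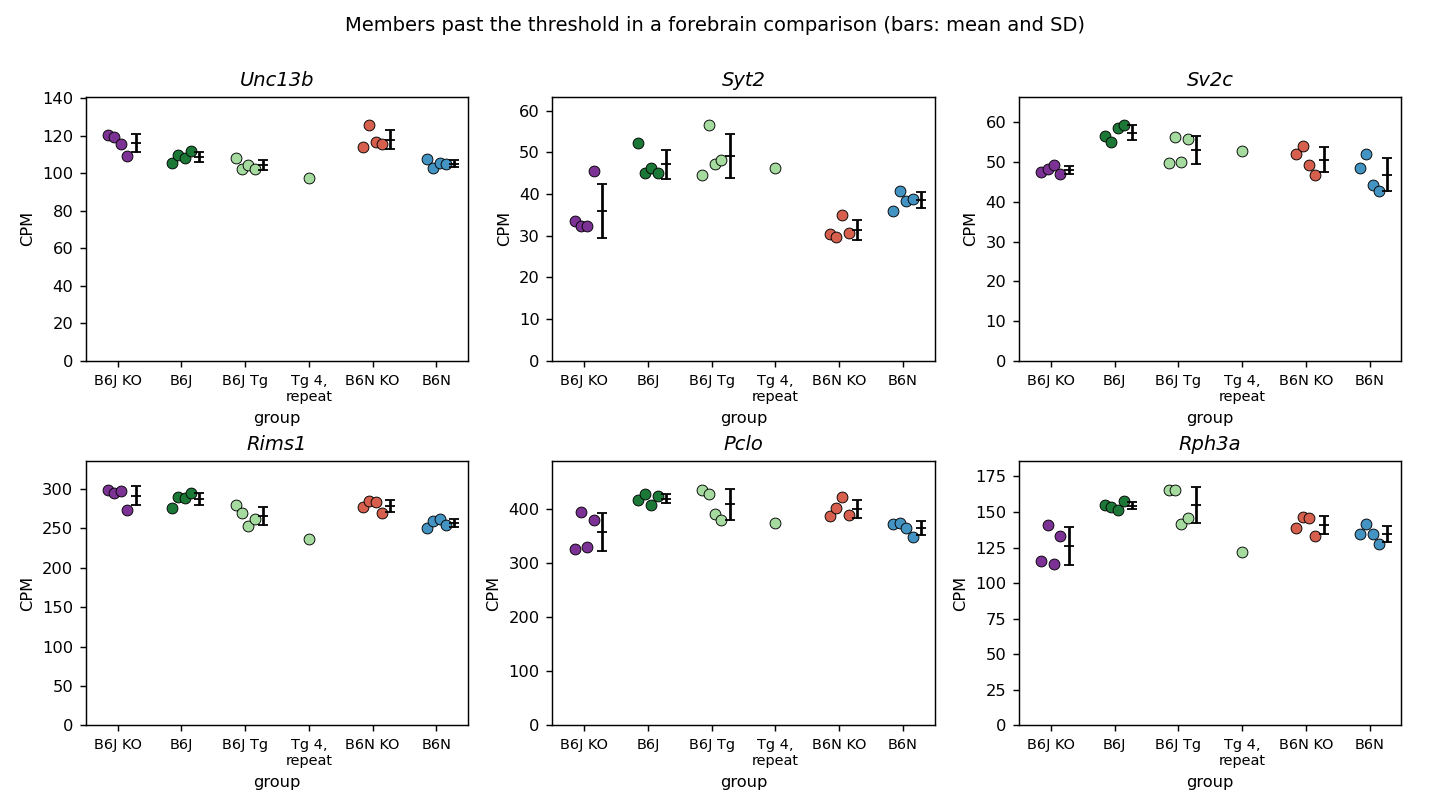
Scaled CPM of the 6 members other than Cplx1 called in a forebrain comparison, in every library by group, with mean and SD beside the points. Syt2 lies at 29.7 to 34.9 CPM in B6N knockout and 36.0 to 40.8 CPM in B6N forebrain, and at 45.0 to 52.3 CPM in B6J forebrain.

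Within the B6J strain, B6J and B6J transgenic mice differ in the added n-Tr20 gene. No member was called between them by edgeR, where 63 genes (0.25%) were, and 9 members and 2592 genes had an unadjusted p under 0.05. DESeq2 called no member either, where 163 genes (0.648%) were called. The members of smallest p were Rims1 (0.11 ± 0.035, adjusted p = 0.20), the phosphatase gene Synj1 (0.11 ± 0.034, 0.21), Amph, encoding amphiphysin (0.10 ± 0.036, 0.26), Cplx1 (-0.11 ± 0.043, 0.34) and the glutamate transporter gene Slc17a6 (-0.66 ± 0.25, 0.37 by edgeR). Synj1 was the 1 member whose groups did not overlap, where 5.03% of all genes did not, and 30 members were above 0 and 11 below. Cplx1 was at 261, 242, 242 and 226 CPM in B6J and 272, 275, 251 and 250.0 CPM in B6J transgenic forebrain. Slc17a6, abundant in thalamus, was at 30.9, 24.5, 22.2 and 21.6 CPM in B6J and 23.99, 35.7, 59.2 and 37.8 CPM in B6J transgenic forebrain, and had the largest spread relative to its mean of the members in each forebrain group. Thalamus and midbrain markers summed to 102 to 176 CPM in B6J and 109 to 233 CPM in B6J transgenic forebrain, with none of 11 at 0 in every library, and their part in Slc17a6 was not tested. Without transgenic 1, where 0.766% of all genes were called, 2 members were, Stx1a and Rims1 (log2 0.14, adjusted p = 0.0498 by edgeR for Rims1).

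Whether the effect of the deletion in B6N differed from that of B6J over B6J transgenic was tested directly. No member and 15 genes (0.0596%) passed by edgeR, and 5 members and 2061 genes had an unadjusted p under 0.05. DESeq2 called no member and 41 genes (0.163%). Cplx1 had the smallest p of the members (-0.19 ± 0.060, adjusted p = 0.31), followed by Rims2 (0.12 ± 0.049, 0.50), Syt2 (-0.24 ± 0.096, 0.51), Slc17a6 (0.87 ± 0.35, 0.55) and Slc17a7 (-0.18 ± 0.080, 0.57 by edgeR). The -0.30 of Cplx1 in B6N knockout was thus not shown to differ from its -0.11 in B6J.

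B6J knockout mice lack n-Tr20 on the B6J background. Their comparisons rest on B6J transgenic mouse 4 alone to measure the difference between batches 2 and 1. In that mouse 31 members were lower and 10 higher in batch 2, by -0.42 to 0.23 on the log2 scale (median -0.08). In B6J knockout against B6J transgenic forebrain no member was called, where 63 genes (0.229%) were, and 7 members and 2373 genes had an unadjusted p under 0.05. Rims1 was at 299, 294, 297 and 273 CPM in B6J knockout and 279.9, 269, 252 and 262 CPM in B6J transgenic forebrain, with 236 CPM in the repeat library. Its difference was 0.27 ± 0.088 (adjusted p = 0.27 by edgeR and 0.044 with DESeq2). Syn2 (-0.24 ± 0.083, 0.30), Syn3 (0.39 ± 0.14, 0.35), Unc13c (0.43 ± 0.15, 0.38) and Vamp2 (-0.34 ± 0.13, 0.44 by edgeR) followed.

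Cplx1 was at 187, 223, 173 and 211 CPM in B6J knockout and 272, 275, 251 and 250.0 CPM in B6J transgenic forebrain, and at 219 CPM in the repeat library. The groups did not overlap, but with the batch term the difference was -0.23 ± 0.14 (adjusted p = 0.69 by edgeR). Against B6J forebrain no member passed, where 26 genes (0.0945%) did, and 5 members and 2121 genes had an unadjusted p under 0.05. Syn2, a synapsin that tethers vesicles in the reserve pool, was at 251, 262, 248 and 257 CPM in B6J knockout and 290.1, 292, 286 and 297 CPM in B6J forebrain, with no overlap. Its difference was -0.28 ± 0.082 (adjusted p = 0.25 by edgeR and 0.024 with DESeq2). Syn3 (0.44 ± 0.14, 0.30), Synj1 (-0.22 ± 0.090, 0.53), Vamp2 (-0.29 ± 0.13, 0.60) and Unc13c (0.32 ± 0.15, 0.64 by edgeR) followed.

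Groups did not overlap in 15 members against B6J transgenic, where 14.9% of all genes did not, and in 22 members against B6J, where 14.7% did not. With no batch term 20 and 24 members were called, where 14.3% and 13.0% of all genes were, but batch and genotype cannot then be told apart. The sexes and the choroid plexus sums given above also moved with B6J knockout. Inhibitory neuron markers summed to 519 to 541 CPM in B6J knockout and 589 to 644 CPM in B6J forebrain. They summed to 598 to 615 CPM in B6J transgenic forebrain and 597 CPM in the repeat library. Striatum markers summed to 735 to 920 CPM in B6J knockout and 924 to 1059 CPM in B6J forebrain. They summed to 763 to 1033 CPM in B6J transgenic forebrain and 916 CPM in the repeat library. The part of sex and of these lists was not tested. The effect of B6J knockout over B6J transgenic minus that of the deletion in B6N called no member and 11 genes (0.04%) by edgeR. An unadjusted p under 0.05 was found in 5 members and 2171 genes. DESeq2 called no member and 103 genes (0.375%). Pclo (-0.34 ± 0.12, 0.43), Syn2 (-0.24 ± 0.091, 0.46), Syn3 (0.38 ± 0.15, 0.51), Vamp2 (-0.36 ± 0.15, 0.52) and Ppfia3 (0.30 ± 0.13, 0.57 by edgeR) had the smallest p.

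Core members of 7 of the roles had the following levels in the 5 forebrain groups. Syn1, a synapsin, was at 67.5, 86.9, 65.9 and 89.95 CPM in B6J knockout, 117, 109, 108 and 108 CPM in B6J, 128, 113, 102 and 93.4 CPM in B6J transgenic, 94.96, 106, 107 and 103 CPM in B6N knockout and 99.9, 109.6, 99.3 and 88.4 CPM in B6N forebrain. Syp was at 566, 567, 505 and 538 CPM in B6J knockout, 619, 603, 606 and 618 CPM in B6J, 636, 589, 579 and 554 CPM in B6J transgenic, 585, 638, 606 and 614 CPM in B6N knockout and 608, 596, 611 and 601 CPM in B6N forebrain. Both were lower in each B6J knockout library than in each B6J library, and the repeat library of B6J transgenic mouse 4 was low as well, at 77.9 CPM for Syn1 and 464 CPM for Syp. Syt1, the main calcium sensor of fast release in forebrain, was at 1275, 1320.4, 1261 and 1179 CPM in B6J knockout, 1204, 1236, 1239.9 and 1218 CPM in B6J, 1254, 1207, 1096 and 1146 CPM in B6J transgenic, 1169, 1253, 1219 and 1246 CPM in B6N knockout and 1222, 1185, 1248 and 1222 CPM in B6N forebrain. Snap25 was at 1278, 1302, 1270.2 and 1179.6 CPM in B6J knockout, 1152, 1163, 1218 and 1170.3 CPM in B6J, 1193, 1208, 1087 and 1112 CPM in B6J transgenic, 1131, 1220.4, 1164 and 1162 CPM in B6N knockout and 1147, 1156, 1171 and 1150.3 CPM in B6N forebrain. The groups overlapped with each other in Syt1, and in Snap25 the B6J knockout libraries were above those of B6N. The repeat library had 1124 CPM of Snap25. B6J knockout and B6N differ in batch as well as strain, and were not compared by a test.

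Stx1a, encoding syntaxin 1A, was at 132, 133, 114 and 112 CPM in B6J knockout, 132, 146, 149 and 143 CPM in B6J, 150.1, 128, 114 and 118 CPM in B6J transgenic, 132, 156, 136 and 144 CPM in B6N knockout and 145, 137, 141 and 153 CPM in B6N forebrain. The B6J knockout libraries of Stx1a were below those of B6N, and the repeat library was lower than both, at 89.9 CPM. Vamp2, encoding the synaptobrevin of most forebrain synapses, was at 126, 135, 112 and 140.2 CPM in B6J knockout, 167, 167, 165 and 165 CPM in B6J, 189, 175, 149.8 and 146 CPM in B6J transgenic, 156, 163, 157 and 160.0 CPM in B6N knockout and 158, 161, 159 and 149 CPM in B6N forebrain. In Vamp2 the B6J knockout libraries were below every batch 1 library, and the repeat library was at 138 CPM. Unc13a, encoding Munc13-1, was at 279, 300.4, 269.8 and 290.2 CPM in B6J knockout, 314, 324, 319.9 and 338 CPM in B6J, 322, 322, 261 and 264 CPM in B6J transgenic, 313, 342, 325 and 304 CPM in B6N knockout and 289.8, 289, 277 and 280.3 CPM in B6N forebrain. Bsn, encoding Bassoon, was at 246, 299, 212 and 307 CPM in B6J knockout, 339.8, 353, 353 and 366 CPM in B6J, 409, 364, 283 and 274 CPM in B6J transgenic, 317, 337, 335 and 319 CPM in B6N knockout and 310.5, 324, 300.2 and 278 CPM in B6N forebrain. The repeat library had 224 CPM of Unc13a and 215 CPM of Bsn, and in Unc13a it was below every other library. Vamp2, Unc13a and Bsn were higher in each B6J library than in each B6N library, and none of the 3 was called. Slc17a7, encoding VGLUT1 of cortical and hippocampal neurons, was at 453, 473, 409 and 446 CPM in B6J knockout, 587, 588, 579 and 594 CPM in B6J, 621, 569, 500.0 and 499 CPM in B6J transgenic, 538, 608, 554 and 598 CPM in B6N knockout and 595, 595, 631 and 603 CPM in B6N forebrain. It was lower in each B6J knockout library than in any batch 1 library, and at 425 CPM in the repeat library. Slc17a6, encoding VGLUT2, was at 30.02, 34.9, 29.1 and 54.9 CPM in B6J knockout, 36.1, 26.9, 36.7 and 24.99 CPM in B6N knockout and 24.6, 30.6, 29.4 and 22.6 CPM in B6N forebrain.

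**Figure D4:**
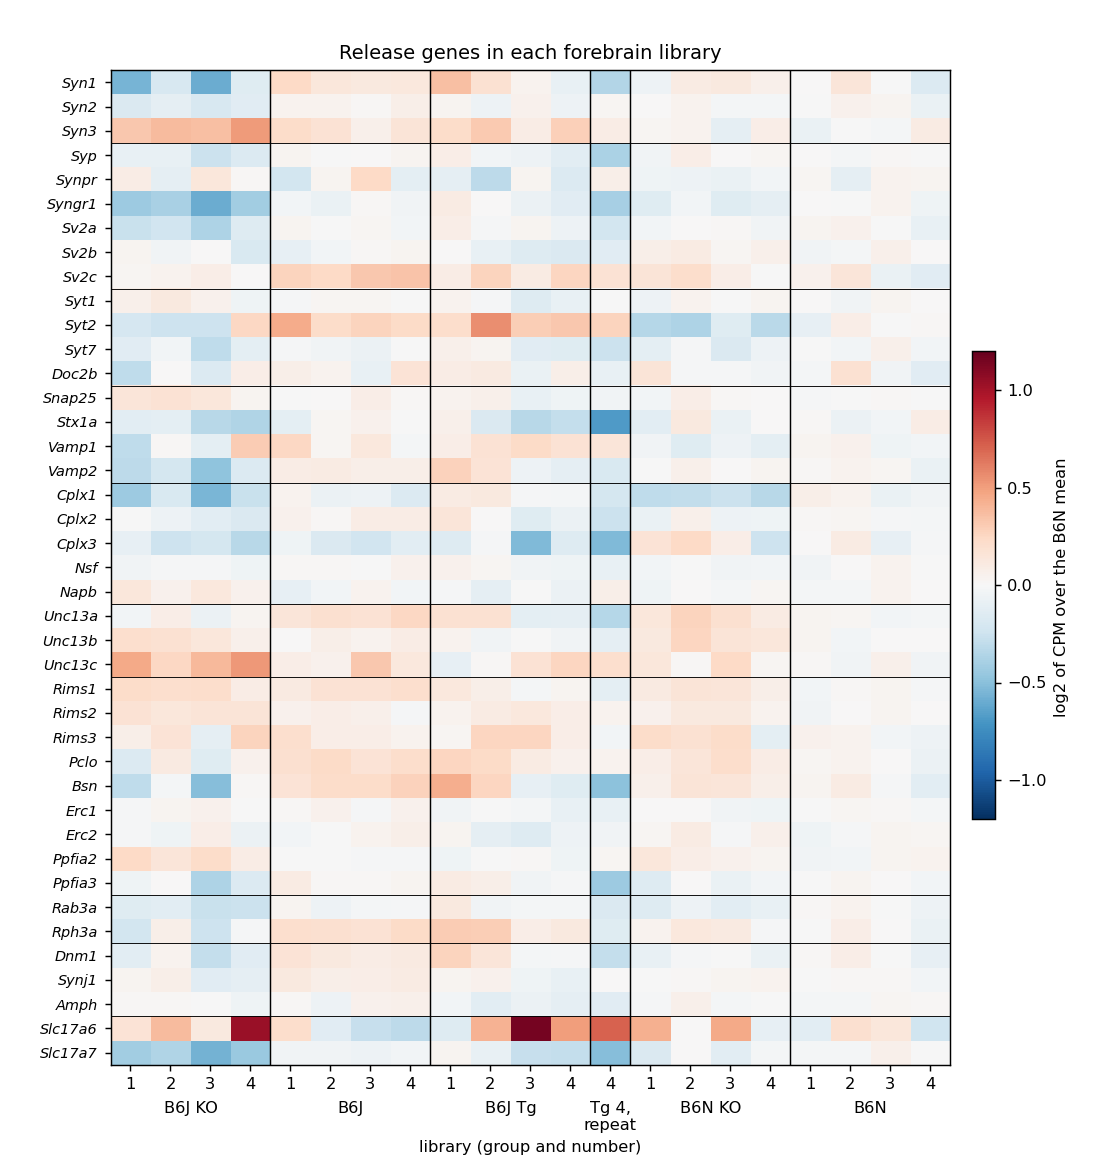
The 41 members (rows, by role) in the 21 forebrain libraries (columns, by group and mouse number), as log2 of CPM over the mean of B6N libraries. Cplx1 is low in all 4 B6N knockout libraries, at 201 to 212 CPM, and many rows are low in B6J knockout libraries and in the repeat library of B6J transgenic mouse 4.

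In hippocampus RNA no member was called between knockout and B6N by edgeR, where 8 of 19352 genes (0.0413%) were, and 5 members and 1536 genes had an unadjusted p under 0.05. Cplx1 had the smallest p of the members. It was at 404, 392 and 349.5 CPM in knockout and 493, 548 and 503 CPM in B6N hippocampus, 1.35-fold apart with no overlap. The difference was -0.43 ± 0.078 (adjusted p = 0.19 by edgeR), and it passed with DESeq2 (adjusted p = 0.000134) and with no filter on low counts (0.000512 by edgeR). Ppfia2, encoding a liprin (0.20 ± 0.071, 0.52), Syngr1, encoding synaptogyrin 1 of the vesicle membrane (-0.23 ± 0.084, 0.52), Unc13a (0.19 ± 0.078, 0.57) and Ppfia3 (-0.16 ± 0.068, 0.59 by edgeR) followed. In all 5 members did not overlap, 2 above and 3 below, where 14.4% of all genes did not, and differences reached from -1.42 (Slc17a6) to 0.26 (Syn3).

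Library B6N 2 of hippocampus RNA had 399 CPM of summed thalamus and midbrain markers, against 144 to 158 CPM in knockout, where 1 of the 11 was at 0 in every library, and 153 and 179.9 CPM in the other B6N libraries. Slc17a6 was at 5.19, 5.84 and 9.93 CPM in knockout and 4.48, 41.05 and 9.89 CPM in B6N hippocampus RNA. Without B6N 2 its difference was -0.05 in place of -1.42, that of Cplx3 -0.18 in place of -0.85 and that of Unc13c -0.30 in place of -0.80, while that of Cplx1 was -0.38 (adjusted p = 0.37 by edgeR). Inhibitory neuron markers summed to 607 to 642 CPM in knockout and 745 to 804 CPM in B6N hippocampus RNA, with none of 8 called or at 0 in every library, and their part in Cplx1 was not tested. Choroid plexus markers summed to 81.8 to 4144 CPM in knockout and 109 to 2802 CPM in B6N hippocampus RNA.

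In hippocampus footprints 4 members fell in knockout, both abundant complexin genes, Cplx1 and Cplx2, with Syngr1 and the glutamate transporter gene Slc17a7. Of all 13227 genes 5.35% were called, 3.16% lower. The median difference was -0.01 over members and 0.0043 over all genes. Cplx1 footprints were at 208, 205 and 240.2 CPM in knockout and 343, 315 and 328 CPM in B6N hippocampus, 1.51-fold lower (log2 -0.59 ± 0.081, adjusted p = 0.0030 by edgeR). Syngr1 footprints were at 126, 114 and 137 CPM in knockout and 160.5, 212 and 183 CPM in B6N hippocampus (-0.56 ± 0.11, adjusted p = 0.016 by edgeR). Neither gene overlapped between the genotypes. Cplx2, the other main forebrain complexin, was at 314, 377 and 379 CPM in knockout and 528, 439.8 and 447 CPM in B6N footprints (-0.40 ± 0.093, adjusted p = 0.028 by edgeR). Slc17a7 footprints were at 906, 893 and 1020.0 CPM in knockout and 1189.8, 1124 and 1127 CPM in B6N hippocampus (-0.29 ± 0.070, adjusted p = 0.032 by edgeR). Each knockout library was below each B6N library in these genes too.

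Pclo footprints were at 735, 610.3 and 637 CPM in knockout and 595, 506 and 538 CPM in B6N hippocampus, with no overlap and without passing by edgeR (0.28 ± 0.085, adjusted p = 0.077), but with DESeq2 (0.042). In all 12 members did not overlap, 5 above and 7 below, where 26.7% of all genes did not. The 37 members not called lay between -0.31 (Syt2) and 0.51 (Unc13c), 20 above 0 and 17 below. With single libraries left out, Cplx1 passed in 6 of 6 fits (adjusted p at most 0.037 by edgeR), Syngr1 failed without knockout 2 or B6N 2 or 3 (0.064 to 0.090), and Cplx2 (0.058 to 0.11) and Slc17a7 (0.059 to 0.15) passed only without knockout 3. Footprints of markers of other cells moved with these members. Of 12 striatum markers 7 rose, none was at 0 in every library, and their sum was 282 to 496 CPM in knockout and 194 to 228 CPM in B6N hippocampus. Excitatory neuron markers summed to 4669 to 5075 CPM in knockout and 5233 to 5892 CPM in B6N hippocampus, with 2 of 10 lower, and inhibitory neuron markers to 1328 to 1501 CPM in knockout and 1523 to 1669 CPM in B6N hippocampus, with 2 of 8 lower. None of either list was at 0 in every library. Microglia markers summed to 309.8 to 328 CPM in knockout and 359 to 434 CPM in B6N footprints, with 3 of 7 lower, and astrocyte markers to 4780.2 to 5095 CPM in knockout and 5211 to 6039 CPM in B6N footprints, with 1 of 7 lower. Of 8 oligodendrocyte markers 2 were lower, and their sums overlapped. Pan-neuronal markers summed to 6841 to 6872 CPM in knockout and 6980.3 to 7069 CPM in B6N footprints, with none of 10 called. Of 6 markers of dentate granule cells 1 was lower. Of 5 markers of layer 6b neurons 1 was higher, Drd1, which is also 1 of the 7 striatum markers that rose. Choroid plexus markers summed to 8014 to 18342 CPM in knockout and 6033 to 13253 CPM in B6N footprints, with none of 8 called. The part of these lists in the member differences was not tested.

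**Figure D5:**
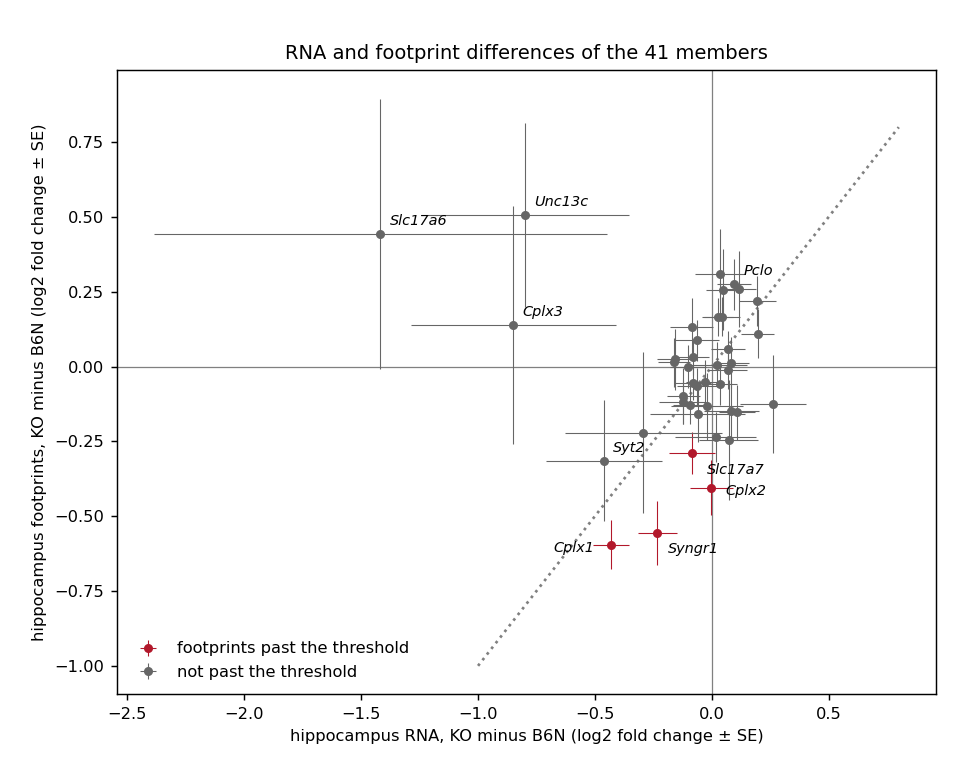
Difference of each of the 41 members between knockout and B6N hippocampus in RNA (horizontal) and in footprints (vertical), as log2 fold change with SE. Red points are the 4 members called in footprints, and the dotted line marks equal differences. Cplx1 lies at -0.43 in RNA and -0.59 in footprints.

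Core members overlapped between genotypes in hippocampus with few exceptions. Syn1 was at 591, 657 and 574 CPM in knockout and 656, 571 and 632 CPM in B6N hippocampus RNA, and at 1003, 870.2 and 939.9 CPM in knockout and 911, 1031 and 975 CPM in B6N footprints. Syp was at 814, 767 and 668 CPM in knockout and 805, 735 and 809 CPM in B6N hippocampus RNA, and at 1669.9, 1616 and 1722 CPM in knockout and 1719.8, 1839.7 and 1685 CPM in B6N footprints. Syt1 was at 1586, 1488 and 1501 CPM in knockout and 1634, 1607 and 1602 CPM in B6N hippocampus RNA, and at 1598, 1578 and 1648 CPM in knockout and 1640.4, 1538 and 1540.2 CPM in B6N footprints, and in RNA its knockout libraries were below the B6N libraries. Snap25 was at 2151, 1882 and 1582 CPM in knockout and 1669.9, 2113 and 1743 CPM in B6N hippocampus RNA, and at 3120.2, 3503 and 3517 CPM in knockout and 3727, 3228 and 3142 CPM in B6N footprints. Stx1a was at 88.8, 78.1 and 69.01 CPM in knockout and 82.4, 78.8 and 89.3 CPM in B6N hippocampus RNA, and at 98.5, 92.6 and 98.2 CPM in knockout and 96.5, 88.2 and 79.4 CPM in B6N footprints. The groups overlapped for Snap25 and Stx1a in both assays. Vamp2 was at 1118, 948 and 849 CPM in knockout and 1081, 1044 and 1054 CPM in B6N hippocampus RNA, and at 544, 615 and 605 CPM in knockout and 614, 616 and 684 CPM in B6N footprints. Unc13a was at 566, 603 and 514 CPM in knockout and 467, 491 and 513 CPM in B6N hippocampus RNA, and at 339, 309 and 299 CPM in knockout and 282, 244 and 286 CPM in B6N footprints, with each knockout library above each B6N library in both assays and neither difference called. Rims1 was at 219.5, 221 and 193 CPM in knockout and 232, 219 and 238 CPM in B6N hippocampus RNA, and at 114, 101 and 93.4 CPM in knockout and 112, 113 and 106 CPM in B6N footprints. Bsn was at 641, 706 and 625 CPM in knockout and 646, 571 and 611 CPM in B6N hippocampus RNA, and at 495, 414 and 432 CPM in knockout and 494, 444 and 554 CPM in B6N footprints, and both genes overlapped between the genotypes in RNA and footprints. Slc17a7 RNA, at 1406, 1430.3 and 1162 CPM in knockout and 1459, 1302 and 1479 CPM in B6N hippocampus, overlapped as well. The Slc17a6 footprints were at 36.4, 36.6 and 39.1 CPM in knockout and 12.5, 44.9 and 25.3 CPM in B6N hippocampus, the widest relative spread of any member in B6N footprints.

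The members called in forebrain and not in hippocampus had the following hippocampus levels. Syt2 was at 21.005, 23.6 and 21.4 CPM in knockout and 20.7, 41.2 and 28.9 CPM in B6N hippocampus RNA, and at 19.6, 18.8 and 21.5 CPM in knockout and 18.1, 34.02 and 22.5 CPM in B6N footprints. Unc13b was at 95.02, 83.8 and 90.3 CPM in knockout and 79.4, 90.02 and 91.1 CPM in B6N hippocampus RNA, and at 39.1, 40.8 and 34.7 CPM in knockout and 27.1, 31.6 and 37.1 CPM in B6N footprints. Both overlapped between the genotypes in RNA and in footprints. Sv2c was at 28.6, 35.2 and 32.7 CPM in knockout and 30.1, 35.7 and 28.3 CPM in B6N hippocampus RNA, and at 31.01, 23.9 and 32.3 CPM in knockout and 23.9, 26.1 and 20.8 CPM in B6N footprints. Rph3a was at 260.1, 429.8 and 314 CPM in knockout and 294, 378 and 375 CPM in B6N hippocampus RNA, and at 297, 273 and 236 CPM in knockout and 311, 277 and 312 CPM in B6N footprints. Pclo RNA was at 441, 507 and 476 CPM in knockout and 459, 428 and 445 CPM in B6N hippocampus. Sv2c and Rph3a overlapped between the genotypes in both assays and Pclo in RNA.

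Translational efficiency, the difference in footprints beyond that in RNA, was tested as an interaction over the 12 hippocampus libraries. It called 0 of 41 members and 0 of 15202 genes (0%) by edgeR, with 4 members and 2251 genes at an unadjusted p under 0.05. DESeq2 called no member either, but 494 genes (3.25%). Without footprint library B6N 1 or knockout 3, edgeR called 1.92% and 1.82% of genes and still no member. Cplx2 had the smallest p of the members (-0.43 ± 0.14, adjusted p = 0.19 by edgeR). Its RNA was at 1542, 1718 and 1419 CPM in knockout and 1554, 1465 and 1667 CPM in B6N hippocampus, with overlap. Syngr1 (-0.35 ± 0.15, 0.28), Unc13c (1.29 ± 0.53, 0.29), Bsn (-0.29 ± 0.13, 0.31) and Syn3 (-0.41 ± 0.23, 0.43 by edgeR) followed, Unc13c on 24 to 83 footprint counts per library in knockout and 28 to 38 in B6N. Cplx1 was at -0.19 ± 0.12 (adjusted p = 0.48 by edgeR), so its footprints were not shown to differ by more than its RNA.

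Footprints per RNA differed among the members in both genotypes. The log2 of mean footprint CPM over mean RNA CPM had a median over members of -0.14 in knockout and -0.28 in B6N hippocampus, and was above 0 in 19 members in knockout and in 17 in B6N. Rab3a, encoding the vesicle GTPase, was at 1.31 in knockout and 1.34 in B6N, Syp at 1.15 in knockout and 1.16 in B6N, and Slc17a6 at 2.42 in knockout and 0.58 in B6N, with the RNA of library B6N 2 in its mean. At the low end, Rims3 was at -2.77 in knockout and -2.86 in B6N, Unc13c at -1.73 in knockout and -3.03 in B6N, and Cplx2 at -2.13 in knockout and -1.73 in B6N. Footprints fall on the coding part and RNA counts on the whole transcript, so these ratios are not per length. Codon content, including the codons that n-Tr20 reads, was not analysed here.

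Transcript shares were estimated for forebrain. In B6N forebrain the leading transcript held over 90% of the counts in 14 members and under 50% in 10. As 1 example, the transcript Pclo-202 held 47.7% to 57.9% of Pclo counts in B6N knockout, 39.7% to 47.1% in B6N and 49.9% to 53.8% in B6J forebrain. Shares of other members' transcripts are not listed here. These shares are estimates from reads that several transcripts can explain, and were not tested. With an offset for transcript length, 7 calls ended by edgeR. In B6J over B6N these were Pclo (log2 0.17, adjusted p = 0.12), Syt2 (0.16, 0.66, in place of 0.30) and Rph3a (0.19, 0.14). In B6N knockout they were Syt2 (-0.35, 0.16) and Unc13b (0.15, 0.31), and in B6J transgenic over B6N they were Syt2 (0.31, 0.40) and Rph3a (0.22, 0.14), while Cplx1 in B6N knockout, and Sv2c and Rims1 in B6J over B6N, passed with the offset.

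Beyond the members, 97 other genes of release, vesicles and endocytosis were followed. In B6N knockout forebrain 5 rose and 2 fell. The endocytic adaptor gene Eps15 rose 1.14-fold (adjusted p = 0.000945 by edgeR), the phosphatase gene Synj2 1.25-fold and Rab3c, a relative of Rab3a, 1.14-fold, while the liprin gene Ppfia4 fell 1.17-fold and the scaffold gene Lin7b 1.2-fold. Atp6v1b2, of the pump that acidifies vesicles, rose 1.09-fold. In B6J over B6N forebrain 4 rose and 1 fell. Syt6 rose 1.43-fold (adjusted p = 6.56e-05 by edgeR), Synj2 1.28-fold, the GABA and glycine transporter gene Slc32a1 1.28-fold and Fcho1 1.18-fold, and Syt4 fell 1.15-fold. In B6J transgenic over B6N forebrain, Syt6 rose 1.29-fold.

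In hippocampus footprints 10 of the 95 of these genes that were tested were called, 4 higher and 6 lower in knockout. Atp6v0c, of the same pump, was 1.37-fold lower (adjusted p = 0.012 by edgeR), the Munc18 partner gene Apba1 1.41-fold lower, Syt13 1.27-fold lower and the epsin gene Epn1 1.27-fold lower. Syt5 was 1.39-fold higher and Cltc, the clathrin heavy chain gene, 1.3-fold higher. By edgeR none of these genes was called in B6J against B6J transgenic, in either B6J knockout comparison, in the tests of differences between effects, in hippocampus RNA or in translational efficiency.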

How the data were processed

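Forebrain values were deposited as estimated counts, TPM and effective lengths per transcript in the kallisto layout, and hippocampus values as raw counts per gene, per the file headers. Per the submitters' processing notes, featureCounts, Bowtie2 2.2.3, HISAT2 2.1.0 and kallisto 0.42.4 were used with mm10, and the notes give no role for each. Per the labels' protocols, forebrain libraries mark the strand. Estimated counts were summed per gene and rounded, and the authors' TPM were summed per gene. Tests used edgeR 4.0.16 in R 4.3.3 (quasi-likelihood F test, two-sided, on genes kept by filterByExpr with its minimum set to 10 counts, TMM scaling, Benjamini-Hochberg over all genes, called at an adjusted p under 0.05), with DESeq2 1.42.0 as an alternative, and were checked on simulated data. The 16 batch 1 forebrain libraries shared 1 fit. All 21 entered a second fit with a batch term, in which transgenic mouse 4 had its own coefficient. In the 11 comparisons, libraries of a group were taken as separate animals, which the labels do not state for hippocampus, so p-values measure the spread between these samples. Every member past the threshold was named, and where fewer than 5 passed also the 5 of smallest p. Other pathway genes were named up to 6 per comparison. The members and lists were chosen with earlier results of these data known. Among 42 pairs of libraries of 1 group, none was as close as counting error would make it (lowest chi-square over degrees of freedom 2.92). Gene positions and promoters are from RefSeq on GRCm38.p6. Coding sequences were not used here.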

Additional observations from a re-analysis of the deposited data

Results flagged for a closer look

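Libraries standing apart from the other 3 of their group in a member, by Dixon's test at the 95% level, were found in 8 of 205 combinations of member and forebrain group, and chance gives about 1 in 20. In B6J knockout mice, Syt2 was at 45.6 CPM in mouse 4, the male of the group, against 32.3 to 33.5 CPM in the others. Mouse 4 also had the most Tcf7l2, 1 of 11 thalamus and midbrain markers, at 11.7 CPM against 2.73 to 7.86 CPM. The 11 markers summed to 93.4 to 209.9 CPM over the B6J knockout libraries. The part of sex or tissue in Syt2 was not tested. In B6J mice, Syn1 was at 117 CPM in mouse 1, against 108 to 109 CPM in the others. In B6J transgenic mice, Rab3a was at 288 CPM in mouse 1, against 258 to 261 CPM in the others. In B6N knockout mice, Amph (162 CPM, others 153 to 154) and Cplx2 (789 CPM, others 715 to 728) were high in mouse 2, Doc2b (19.99 CPM, others 17.5 to 17.9) was high in mouse 1, and Rims3 (118 CPM, others 146 to 150) was low in mouse 4. In B6N mice, Synpr was at 68.7 CPM in mouse 2, against 75.3 to 75.9 CPM in the others.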

How the results depend on the processing

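Counts of members called moved by over 1.5 times as follows. With a transcript length offset there were 1 in B6N knockout against B6N, 2 in B6J against B6N and 0 in B6J transgenic against B6N, where 0.692%, 0.569% and 0.219% of all genes were called, and with the 2 groups fitted alone 6, 8 and 1, where 2.87%, 4.12% and 0.358% were. Leaving out the libraries with Ttr over 40 CPM, an alternative chosen after seeing the data, gave 0, 0 and 0, where 0.0927%, 0.197% and 0.201% of all genes were called, and, in B6J against B6J transgenic, 1 (Stx1a), where 0.742% were. DESeq2 gave 1 against B6J transgenic and 1 against B6J in B6J knockout (0.64% and 0.513% of all genes) and 1 in hippocampus RNA (0.692%), where no filter also gave 1 (0.381%). With no batch term, B6J knockout had 20 members called against B6J transgenic, 24 against B6J and 5 in the difference of effects (14.3%, 13.0% and 2.58% of all genes), where Ppfia3 turned to -0.10. Leaving out 1 library gave 1 to 4 in B6N knockout, 3 to 5 in B6J against B6N, 0 to 4 in B6J transgenic against B6N, 0 to 2 in B6J against B6J transgenic, 1 to 4 in footprints and 0 in the other comparisons. In the 5 named, the share of all genes called was, in that order, 1.03% to 2.95%, 0.845% to 1.67%, 0.208% to 0.688%, 0.0625% to 0.766% and 0.24% to 6.88%. The cause of these changes was not tested. RLE scaling and protein coding genes only changed no count by that much. A fit of males only was run for the B6J knockout comparisons alone. It left 1 B6J knockout, mouse 4, so it cannot show whether sex matters. Hippocampus RNA, where knockout 1 was female, had no such fit. Without either library of transgenic mouse 4 the bridge between batches could not be fitted, and codon content was not run.

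Same-numbered libraries' deviations from their group means correlated at over 0.1 in every pair between footprints and RNA of B6N hippocampus alone (0.115 to 0.187), against -0.23 to 0.16 in knockout hippocampus. They correlated at -0.27 to 0.08 between B6N knockout and B6N, -0.05 to 0.23 between B6J and B6N, -0.14 to 0.10 between B6J transgenic and B6N, -0.41 to 0.13 in hippocampus RNA and -0.03 to 0.065 in footprints between genotypes, so the numbers were not shown to pair the compared groups. With the replicate block, 2 members were called in B6N knockout (Syt2 adjusted p = 0.057 by edgeR), 5 in B6J against B6N, 2 in B6J transgenic against B6N and 3 in footprints, and 0 in the others. For translational efficiency the block joined same-numbered libraries of the genotypes within an assay. A fit that pairs footprints with RNA by number was not run. The median log2 footprint to RNA ratio of B6N members was -0.28, and unscaled CPM kept it within the spread of the 3 footprint libraries. Small effects in Cplx3 and Unc13c are limited by footprint counts of 11 to 83 per library.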
